A study of Oryza sativa with 7 samples.

Results

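The control methylomes of N22 and Pokkali, 2 stress-tolerant rice cultivars, were compared cytosine by cytosine and in 100 bp bins of the genome. The N22 control library listed 18144722 methylated cytosines (mCs) on chromosomes 1 to 12 and the Pokkali control library 16741227, and 11488039 positions were listed in both. Of 2273435 bins that held a listed mC in any of the 7 libraries of the series, 1467214 held at least 1 position shared by N22 and Pokkali control, and the 1100895 bins with 3 or more shared mCs were tested. Each difference was then set against the control library of IR64.

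N22 (Nagina 22) is tolerant to drought, Pokkali is tolerant to salinity, and IR64 is sensitive to both. The control libraries came from whole seedlings of N22, Pokkali and IR64 that were grown for 2 weeks and kept in water, and each control library was made by the authors from the pooled DNA of 3 biological replicates. The stressed libraries were N22 desiccation (seedlings on dry filter paper), Pokkali salinity (200 mM salt), IR64 desiccation and IR64 salinity, and the pooling of their DNA was not stated in the sources used here. There was 1 library per group and so no error between replicates. A difference between the control libraries therefore compares these libraries, and the cultivar and the library cannot be told apart in it.

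Plants methylate cytosines in the CG, CHG and CHH contexts, where H is A, C or T. CG methylation is copied onto the new strand by a maintenance methyltransferase after DNA replication and marks both transposons and the bodies of many genes. CHG methylation is kept by chromomethylases that bind histones with a repressive mark, and CHH methylation, which has no symmetric partner on the other strand, is laid down anew by small RNA-directed methylation at short transposons and by chromomethylases in heterochromatin. A bin with CG methylation alone therefore often belongs to a gene body, and a bin with all contexts to a transposon or repeat.

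The median read depth per listed mC was 13 in N22 control and 15 in Pokkali control, and the mean depth was 18.3 and 19.0 reads. The depth followed CG density differently in these libraries. The ratio of the mean depth of CG-dense to that of CG-poor bins, taken over the mCs that every library listed, was 1.46 in N22 control, 0.922 in Pokkali control and 0.911 in IR64 control, and it was at most 1.15 in the stressed libraries. The error rate that the tables imply for the calling of mCs was 1% in N22 control, 0.75% in Pokkali control and 0.45% in IR64 control. At a depth of 30 reads this asked for 4 methylated reads in N22 and in Pokkali control and for 3 in IR64 control. The tables list no cytosine that was not called methylated, so a bin that was fully unmethylated in a cultivar could not be tested.

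The shared mCs made up 63.3% of the mCs of N22, 68.6% of those of Pokkali and 49.1% of the positions listed in either. Sharing was widest in CG context, where 6052066 mCs were shared (55.7% of those in either library), followed by CHG (3492900, 51.2%) and CHH (1940930, 34.0%). At shared mCs the methylation level, that is the share of reads that were methylated in percent, was higher in N22 in each context. The CG level was 88.1% in N22 and 84.7% in Pokkali (difference 3.43 points), the CHG level 67.2% and 64.1% (3.11 points), and the CHH level 39.6% and 36.1% (3.46 points). The 95% Wilson intervals were narrow (39.57 to 39.60 for CHH in N22 and 36.11 to 36.14 in Pokkali) and cover counting error only. The difference was larger in CG-poor bins, where the CG level differed by 5.09 points, the CHG level by 6.87 and the CHH level by 5.86, than in CG-dense bins, where they differed by 1.99, 0.204 and 0.683 points. N22 control was also the library with the most depth in CG-dense bins, and the part of the depth in this pattern was not tested.

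Few single mCs were far apart. Of the shared CG mCs, 64.0% had levels within 10 points of each other, 122560 (2.03%) were at least 50 points higher in N22 and 31286 (0.517%) at least 50 points lower. The shares of higher and lower mCs at 50 points were 1.76% and 0.591% in CHG and 1.40% and 0.471% in CHH context. Within a cultivar such mCs were rarer in CG and CHG context, but not in each direction in CHH context. N22 desiccation was 50 points above N22 control at 0.0609% of shared CG mCs and below it at 0.111%, and Pokkali salinity was above Pokkali control at 0.117% and below it at 0.123%. In CHG context the shares were 0.225% above and 0.317% below for N22 desiccation and 0.371% and 0.287% for Pokkali salinity. In CHH context they were 0.237% above and 0.543% below for N22 desiccation and 0.933% and 0.173% for Pokkali salinity.

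Differentially methylated regions (DMRs) were bins in which the levels of N22 and Pokkali differed by at least 20 points at an adjusted p of at most 0.01 (Fisher's exact test, two-sided, Benjamini-Hochberg adjustment). Of the 1100895 bins tested, 58586 were DMRs (5.32%), and most of them were more methylated in N22. A total of 51434 DMRs were higher in N22 (4.67% of the bins tested and 87.8% of the DMRs, 95% Wilson interval 87.5 to 88.1) and 7152 were lower (0.65% of the bins). The median difference was 1.91 points over all bins tested, 32.5 points over the DMRs higher in N22 and -30.5 points over those lower. The median levels of the DMRs higher in N22 were 85.6% in N22 and 47.1% in Pokkali, and of those lower in N22 they were 49.7% in N22 and 84.5% in Pokkali. A read that spans several mCs was counted at each of them, so these p-values can be too small. The interval treats bins as independent, although neighbouring bins can share reads, and holds no spread between plants of a cultivar. After both libraries were thinned to the lower depth at each shared mC, 46463 bins were DMRs (4.22%), of which 89.0% were higher in N22.

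The excess of higher DMRs was found in each context. In CG context 38079 of 799257 bins were DMRs (4.76%), with 31861 higher (3.99%) and 6218 lower (0.778%) in N22. In CHG context there were 22647 DMRs among 507628 bins (4.46%), with 20070 higher (3.95%) and 2577 lower (0.508%). In CHH context there were 9579 DMRs among 197697 bins (4.85%), with 8286 higher (4.19%) and 1293 lower (0.654%). Differences over 50 points were common among CG DMRs (7692 higher and 757 lower) and CHG DMRs (2795 and 184) and scarce among CHH DMRs (266 and 65).

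**Figure D1:**
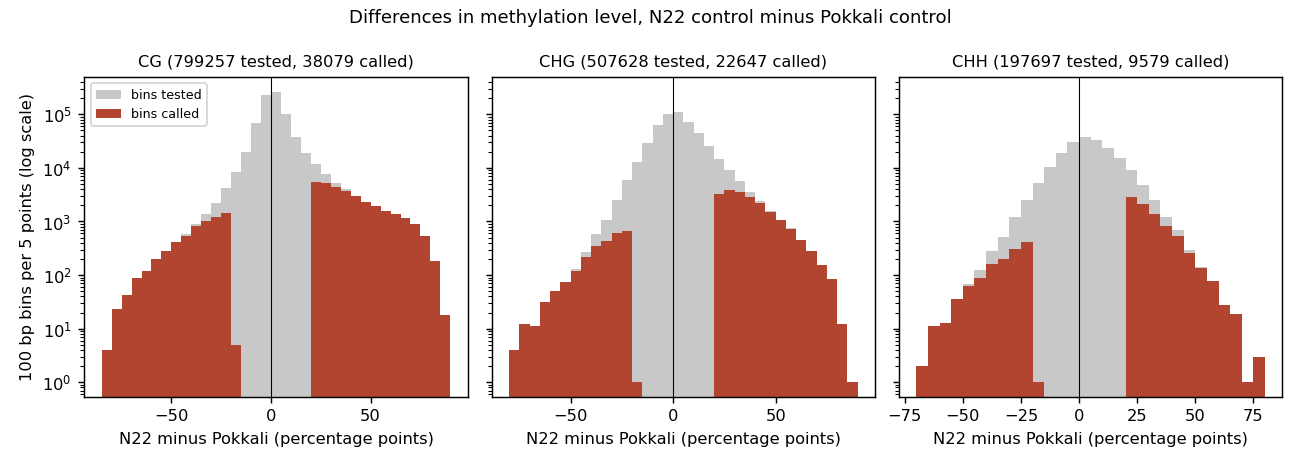
Number of 100 bp bins (log axis) by the difference in methylation level, N22 control minus Pokkali control, in steps of 5 percentage points for CG, CHG and CHH. Grey bars are bins tested and red bars are DMRs, and in each context the red bars on the right (31861, 20070 and 8286 DMRs higher in N22) stand above those on the left (6218, 2577 and 1293 lower). A difference of exactly -20 points falls in the step that starts at -20.

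The levels on both sides of a DMR depended on the context. In CG context 67.7% of the DMRs were at 80% or more in N22 and between 20% and 80% in Pokkali, and 13.1% were between 20% and 80% in N22 and at 80% or more in Pokkali. A level of 80% or more on one side and under 20% on the other was found in 1162 CG DMRs with N22 as the methylated library and in 35 with Pokkali as the methylated library. In CHG context 48.9% of the DMRs, and in CHH context 76.5%, were between 20% and 80% in both libraries.

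DMRs were most frequent where CG was the only context with listed mCs. Of 138902 such bins 12.6% were DMRs, and 91.6% of these were higher in N22. The share was 7.09% in bins with CHG but no CHH mCs and 6.21% in bins with CHH but no CHG mCs. In the 685306 bins with CHG and CHH mCs it was 3.22%, and 84.0% of these DMRs were higher in N22. With p-values adjusted over all bins, CG-poor bins had more DMRs than CG-dense bins (6.76% and 3.32%), and the share of higher DMRs was 91.0% in CG-poor and 80.2% in CG-dense bins. Over the mCs that every library listed, the mean depth was 21.1 reads in N22 and 25.2 in Pokkali in CG-poor bins, and 30.9 in N22 and 23.3 in Pokkali in CG-dense bins.

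CG and CHG DMRs coincided in part, and few CHH DMRs had a CG or CHG DMR of the same sign. Of the 4247 bins with a CG DMR higher in N22 that were also tested in CHG context, 34.1% had a CHG DMR in the same direction, against 3.11% of all bins tested in both contexts. For CG DMRs lower in N22 this share was 14.1%, against 0.489%. In the other direction, 1450 of 11633 CHG DMRs higher in N22 (12.5%) and 220 of 1828 lower in N22 had a CG DMR of the same sign, against 1.13% and 0.418% of all bins. Among 602 CG DMRs lower in N22 that were tested in CHH context, 9 had a CHH DMR that was also lower, as had 0.669% of all bins, and 72 had one that was higher in N22, as had 3.01% of all bins. Of 3257 CHH DMRs higher in N22, 92 (2.82%) had a CG DMR that was higher as well, against 1.03% of all bins, and 72 had one that was lower, against 0.557%. The median CG difference in these CHH DMRs was 0.923 points.

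Both strands gave the same direction for most CG and CHG DMRs. Of 8483 bins called higher in N22 from CG mCs of the plus strand, 95.9% were higher on the minus strand, against 56.1% of all bins, with a median of 31.5 points there. For 1460 bins called lower from the plus strand the share was 87.5%, against 42.6%. In CHH context, which is not symmetric, 79.4% of the higher and 63.9% of the lower bins of the plus strand had the same sign on the minus strand, against 65.1% and 34.6% of all bins.

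DMRs were spread over the genome. The share of tested bins that were DMRs lay between 4.59% on chromosome 5 and 5.96% on chromosome 12, and 86.2% (chromosome 3) to 89.9% (chromosome 10) of the DMRs of a chromosome were higher in N22. In 374 windows of 1000000 bp with at least 1000 tested bins, the median share was 5.53%. The lowest share, 1.57%, was on chromosome 3 from 19000001 to 20000000, and the highest, 11.1%, on chromosome 2 from 34000001 to 35000000, where 199 DMRs were higher and 24 lower in N22. Each of the 374 windows had more higher than lower DMRs. Coordinates are those of MSU release 7, and the gene annotation of that build was not used here, so no position was assigned to a gene.

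Most DMRs stood alone. Neighbouring DMRs of the same sign were joined into runs, and 83.4% of 41065 higher runs and 92.0% of 6471 lower runs had 1 bin. A run also ended at a neighbouring bin that could not be tested, and how often this happened was not counted. Counted as DMRs, 17187 of the higher (33.4%) and 1197 of the lower (16.7%) lay in runs of 2 bins or more. There were 325 higher and 11 lower runs of 5 bins or more. The longest run higher in N22 had 22 bins on chromosome 2, from 15636301 to 15638500, and held 165 shared mCs of which 155 were CHG. Its level was 73.1% in N22 and 27.3% in Pokkali control, against 75.4% in IR64 control. It was 73.7% in N22 desiccation and 26.7% in Pokkali salinity, against 74.6% in IR64 desiccation and 76.3% in IR64 salinity. Both Pokkali libraries were low and the other 5 libraries high. The CHG levels of the run were 72.7% in N22 and 25.2% in Pokkali control, and its CG levels, over 8 mCs, were 82.5% in N22 and 70.9% in Pokkali control.

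The next longest higher run had 19 bins on chromosome 7, from 20260901 to 20262800, with 198 shared mCs. Its level was 86.9% in N22 and 40.9% in Pokkali control, and 87.1% in N22 desiccation and 42.6% in Pokkali salinity. IR64 control listed 23 of these mCs, and 18 of the 19 bins could not be tested with IR64. The longest run lower in N22 had 10 bins on chromosome 6, from 14939101 to 14940100, with levels of 35.5% in N22 and 74.5% in Pokkali control, against 69.1% in IR64 control. N22 desiccation was at 29.7% and Pokkali salinity at 78.2%. IR64 control listed 96 of the 121 shared mCs of this run, and its place depended on the context. The CG levels were 41.8% in N22 and 88.5% in Pokkali control, against 95.2% in IR64 control. The CHG levels were 32.3% in N22 and 69.1% in Pokkali control, against 47.1% in IR64 control. The second such run had 7 bins on chromosome 1, from 6763701 to 6764400, and 39 of its 44 mCs were CG. Its level was 30.9% in N22 and 92.5% in Pokkali control, against 86.6% in IR64 control, which listed 23 of these mCs.

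IR64 control was used to ask which library of a DMR stood apart. Over all bins with 3 shared mCs, 3.79% were DMRs between N22 and IR64 control (3.53% of CG bins, 2.91% of CHG bins and 3.84% of CHH bins) and 4.47% between Pokkali and IR64 control (4.81%, 2.63% and 2.09%). In 930952 bins with at least 3 mCs listed in all 3 control libraries, 41589 were DMRs between N22 and Pokkali (4.47%), 31771 between N22 and IR64 (3.41%) and 34618 between Pokkali and IR64 (3.72%). These comparisons share libraries, so the counts below are a description, and their intervals treat bins as independent. Pokkali stood apart in 15930 of the 41589 DMRs (38.3%, 95% Wilson interval 37.8 to 38.8), which means that it differed from both N22 and IR64 while N22 and IR64 were not called. N22 stood apart in 9951 (23.9%, 23.5 to 24.3). IR64 lay between N22 and Pokkali, with all 3 pairs called, in 571 DMRs and outside them in 628. In the other 14509 (34.9%) neither pair with IR64 was called. A bin that was not called is not shown to be alike, and with the added limit of under 10 points between the remaining pair Pokkali stood apart in 13050 and N22 in 7340 DMRs.

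Of all 41589 DMRs in these bins 86.0% were higher in N22, so a low Pokkali and a high N22 were the frequent directions before any class was made. Where Pokkali stood apart it was nearly always the less methylated library. In 15069 of its 15930 DMRs the median levels were 88.8% in N22 and 46.3% in Pokkali, against 86.4% in IR64, and in the other 861 they were 47.6% in N22 and 84.0% in Pokkali, against 46.4% in IR64. Where N22 stood apart it was the more methylated library in 7363 DMRs, with median levels of 85.7% in N22 and 48.2% in Pokkali, against 47.7% in IR64. It was the less methylated library in 2588, with 49.3% in N22 and 86.9% in Pokkali, against 87.9% in IR64. CG mCs made up 49.2% of the shared mCs of the DMRs in which N22 was high, 70.4% where N22 was low, 64.7% where Pokkali was high and 67.3% where Pokkali was low.

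The context changed the balance. In bins with 3 mCs of a context in all 3 control libraries, there were 25576 CG DMRs (3.84%), 17158 CHG DMRs (4.27%) and 7383 CHH DMRs (5.22%) between N22 and Pokkali. N22 stood apart in 24.4% of these CG DMRs and Pokkali in 44.7%. Among CHG DMRs the shares were 22.6% for N22 and 30.2% for Pokkali. Among CHH DMRs they were 29.9% for N22 and 11.8% for Pokkali, and in 58.0% neither pair with IR64 was called. At the mCs listed in all 3 control libraries the CHH level was 41.5% in N22 and 37.8% in Pokkali, against 37.9% in IR64, while the CG level was 88.3% in N22 and 85.6% in Pokkali, against 85.0% in IR64.

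The 4 stressed libraries were not used to make these classes. A total of 799188 bins had at least 3 mCs listed in all 3 control libraries and at least 3 listed in all 4 stressed libraries. In 12543 of the DMRs in which Pokkali control was low, Pokkali salinity was at least 20 points below the other 3 stressed libraries in 67.2%, against 1.76% of all these bins. The median levels there were 88.2% in N22 desiccation and 51.9% in Pokkali salinity, against 86.7% in IR64 desiccation and 86.6% in IR64 salinity. In 2230 DMRs in which N22 control was low, N22 desiccation was at least 20 points below the other 3 in 67.9%, against 0.554% of all bins. In 5689 DMRs in which N22 control was high, N22 desiccation was at least 20 points above the other 3 in 38.4%, against 0.656%, with median levels of 82.5% in N22 desiccation and 55.9% in Pokkali salinity, against 55.1% in IR64 desiccation and 55.4% in IR64 salinity. In 669 DMRs in which Pokkali control was high, the share was 42.6%, against 0.224%. With no limit on the distance, Pokkali salinity was below the other 3 stressed libraries in 95.8% of the DMRs with Pokkali low (27.3% of all bins) and above them in 91.2% of those with Pokkali high (26.2%), and N22 desiccation was below them in 96.0% of the DMRs with N22 low (22.9%) and above them in 86.6% of those with N22 high (29.8%).

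**Figure D2:**
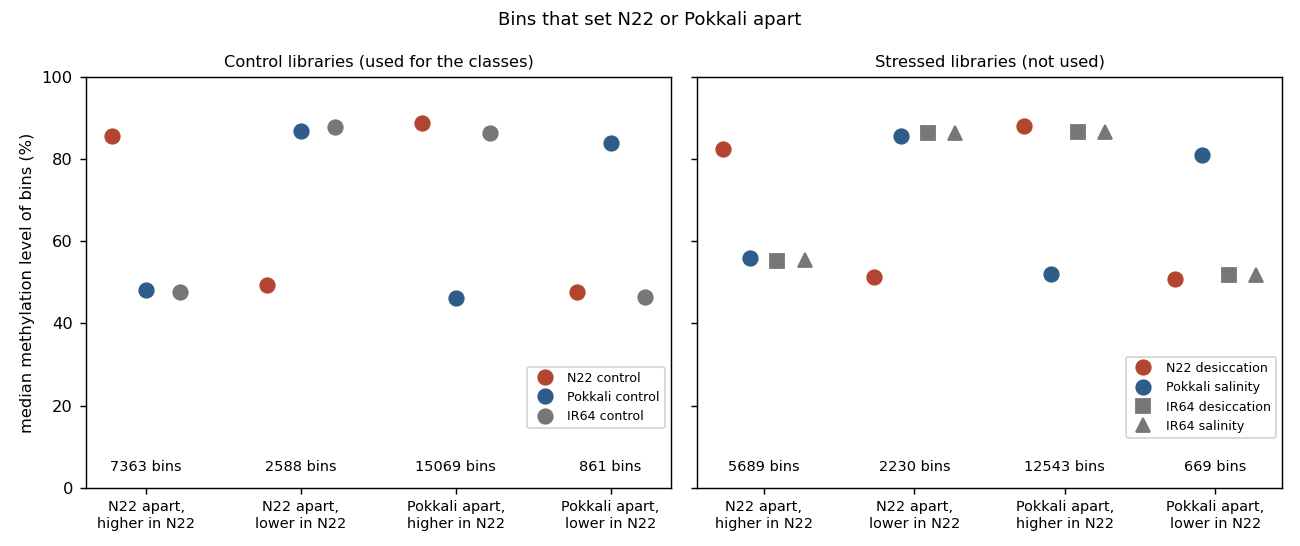
Median methylation level (%, from 0 to 100) of the DMRs that set N22 or Pokkali apart from IR64, by class and direction, with the number of bins below each. Left, the 3 control libraries that define the classes, and right, the 4 stressed libraries, in which the library of the cultivar that stands apart keeps to its side of the others (for example 51.9% in Pokkali salinity, against 86.6% to 88.2% in the others, for the DMRs with Pokkali low).

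The pair of N22 desiccation and Pokkali salinity shares no library with the control pair, although its members had different treatments. It gave 44639 DMRs in 1036004 bins (4.31%), of which 34536 were higher and 10103 lower in N22. By context, 4.29% of the CG bins, 3.36% of the CHG bins and 2.59% of the CHH bins were DMRs. Within a cultivar the counts were far smaller with the contexts summed and in CG and CHG context. There were 1169 DMRs between N22 desiccation and N22 control (0.0948%, and 0.0399% in CG and 0.0192% in CHG context). Between Pokkali salinity and Pokkali control there were 3386 (0.287%, and 0.0634% in CG and 0.013% in CHG context). In CHH context the share was 0.758% within N22 and 2.31% within Pokkali, the latter near the 2.59% of the stressed pair. In the 967127 bins tested in both cultivar pairs, 42859 control DMRs were higher in N22. Of these 93.2% were higher in N22 in the stressed pair as well, against 52.8% of all bins, 22997 (53.7%) were called again, against 3.32% of all bins, and 64 were called in the opposite direction. Of 6096 control DMRs lower in N22, 95.9% kept the sign, against 46.8% of all bins, 3309 (54.3%) were called again, against 0.9%, and 2 were called in the opposite direction. The 22997 and 3309 DMRs were 71.7% and 38.0% of the 32081 and 8705 DMRs of the stressed pair in these bins.

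Most CG and CHG DMRs kept their sign in the stressed pair, as did 59.1% of the CHH DMRs higher in N22. Of the CG DMRs higher in N22, 97.9% had the same sign there, against 56.2% of all bins, and 65.0% were called again, against 3.34%. Of the CG DMRs lower in N22, 96.3% had the same sign, against 42.9%, and 56.9% were called again, against 0.803%. Of the CHG DMRs higher in N22, 96.9% had the same sign, against 50.6%, and 50.8% were called again, against 2.87%. Of the CHG DMRs lower in N22, 94.0% had the same sign, against 49.1%, and 39.2% were called again, against 0.572%. Of 6700 CHH DMRs higher in N22, the 59.1% with the same sign stood against 35.9% of all bins. Of the 6700, 453 (6.76%) were called again, against 0.608%, and 92 were called in the opposite direction, as were 2.37% of all bins. Of 1036 CHH DMRs lower in N22, 90.3% had the same sign, against 63.9%, and 33.8% were called again, against 2.37%. The CHH level at shared mCs was 3.46 points higher in N22 in the control pair and differed by -1.14 points in the stressed pair (36.8% in N22 desiccation and 38.0% in Pokkali salinity). In CHH context both stressed libraries differed from the control library of their cultivar, and treatment and library cannot be told apart in this. Of 5109 CHH DMRs between Pokkali salinity and Pokkali control (2.31%), 96.8% were higher in Pokkali salinity, and of 1657 between N22 desiccation and N22 control (0.758%), 8.57% were higher in N22 desiccation. With Pokkali salinity in place of Pokkali control, 49.96% of the CHH DMRs were higher in N22 control, against 86.5% in the control pair.

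**Figure D3:**
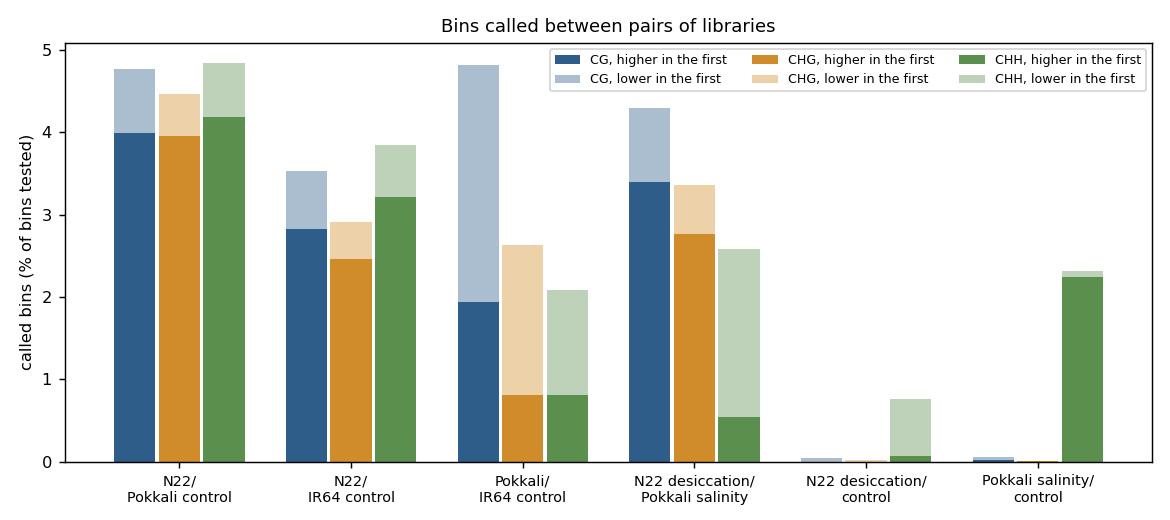
DMRs as a percent of the bins tested in 6 pairs of libraries, split by context (colour) and by direction (dark, higher in the library named first, pale, lower in it). The CG bars of pairs of N22 with Pokkali reach 4.76% and 4.29% and those within a cultivar 0.0399% and 0.0634%, and for CHH the dark part leads in N22/Pokkali control and the pale part in N22 desiccation/Pokkali salinity.

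**Figure D4:**
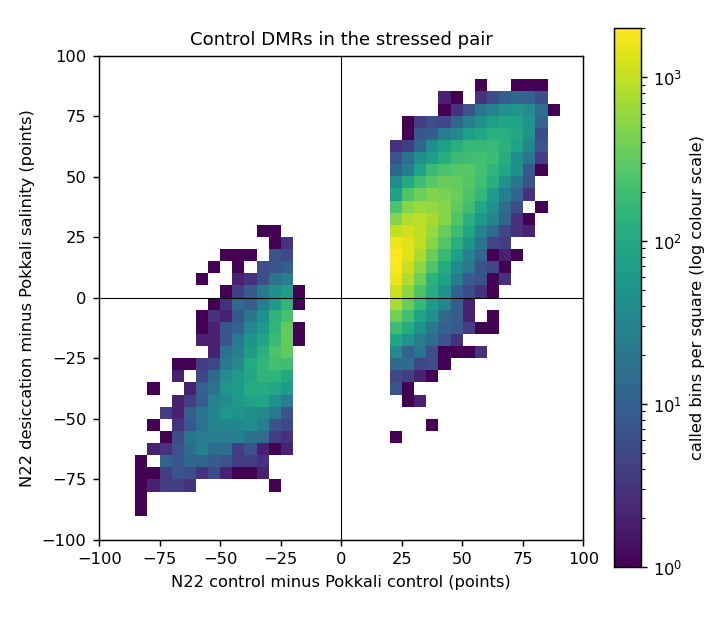
Differences of the 48955 control DMRs tested in both pairs, with N22 control minus Pokkali control on the x axis and N22 desiccation minus Pokkali salinity on the y axis, both in percentage points, and the number of bins per square as colour (log scale). Most squares lie in the upper right and lower left parts, where 93.2% of the higher and 95.9% of the lower DMRs fell.

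Named bins show the extreme end of these classes at single mCs, not a typical DMR. They were the DMRs of each class with the largest difference among those with at least 5 shared mCs, 50 reads in each library and a difference of at least 20 points with the same sign in the stressed pair, so their agreement with that pair is part of the choice. The strongest DMR in which Pokkali stood apart lay on chromosome 11, from 23148401 to 23148500, with 10 shared mCs (8 CG, 1 CHG and 1 CHH). Its level was 96.9% in N22 and 15.8% in Pokkali control, against 92.6% in IR64 control, from 194, 259 and 122 reads (adjusted p = 1.09e-72 for N22 and Pokkali, Fisher's exact test). All 10 mCs lay on the plus strand, and each was between 90.5% and 100% in N22 and between 13.3% and 18.5% in Pokkali control. At a depth of 30 reads an mC of Pokkali control needed 4 methylated reads, so 13.3% was the lowest level that could be listed at that depth. The low levels of the named bins are bounded by this limit, which varies with depth, and cytosines below it were left out. N22 desiccation was at 98.1% and Pokkali salinity at 12.9%, against 98.7% in IR64 desiccation and 94.4% in IR64 salinity.

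A second DMR with Pokkali low lay on chromosome 1, from 448801 to 448900, with 5 shared CG mCs. Its level was 98.8% in N22 and 18.1% in Pokkali control, against 93.7% in IR64 control, which listed 3 of these mCs. N22 desiccation was at 92.9%, and Pokkali salinity, which listed 2 of them, at 17.5%. IR64 desiccation was at 71.4% and IR64 salinity at 95.7%. At an mC that IR64 control did not list, IR64 desiccation was at 12.5%. Where Pokkali was high, a bin on chromosome 7, from 9015101 to 9015200, had 24.1% in N22 and 96.1% in Pokkali control, against 31.6% in IR64 control, and a bin on chromosome 10, from 6942601 to 6942700, had 28.9% and 100%, against 32.9%. In the chromosome 10 bin the stressed libraries of IR64 stood higher, at 45.2% and 54.7%.

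The strongest DMR in which N22 was low lay in the 7-bin run on chromosome 1, from 6763801 to 6763900. Its 10 CG mCs were all on the plus strand. The level was 21.2% in N22 and 98.5% in Pokkali control, against 86.8% in IR64 control, which listed 5 of the 10 mCs (adjusted p = 2.87e-53, Fisher's exact test). In N22 control each mC was between 16.7% and 26.7%, and in Pokkali control each was between 87.5% and 100%. N22 desiccation was at 16.0% and Pokkali salinity at 96.7%, against 90.8% in IR64 desiccation and 89.3% in IR64 salinity. On chromosome 5, from 3966101 to 3966200, 5 CG mCs had 28.7% in N22 and 100% in Pokkali control, against 95.1% in IR64 control.

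Where N22 was high, a bin on chromosome 6, from 24739601 to 24739700, had 93.2% in N22 and 13.1% in Pokkali control, against 16.0% in IR64 control over 5 CG mCs, of which IR64 control listed 3. Pokkali salinity stood at 35.7%, above Pokkali control. The other named bin of this class went against its label. On chromosome 11, from 23148901 to 23149000, it lay near the strongest bin with Pokkali low and had 95.1% in N22 and 17.1% in Pokkali control, and it was placed with N22 apart by the 46.7% of IR64 control, which rested on 15 reads at 3 mCs. IR64 desiccation was at 85.1% and IR64 salinity at 81.8% there, on the side of N22.

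IR64 lay between N22 and Pokkali in a bin on chromosome 4, from 16193201 to 16193300, with 98.9% in N22 and 17.6% in Pokkali control, against 46.9% in IR64 control. At the 7 CG mCs of this bin the IR64 control level was between 21.1% and 55.6%, N22 control was between 88.9% and 100% and Pokkali control between 10.8% and 23.5%. The order was N22, IR64, Pokkali at each of the 7 mCs, and the ranges of IR64 and Pokkali overlapped. The opposite order was found on chromosome 7, from 17325501 to 17325600, with 16.8% in N22 and 100% in Pokkali control, against 46.5% in IR64 control. This bin also had the largest difference with N22 lower among CG DMRs under the rule for named bins.

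The largest CG difference with N22 higher lay on chromosome 7, from 17439201 to 17439300, with 98.7% in N22 and 13.3% in Pokkali control at 5 mCs, none of which was listed in any IR64 library. The largest CHG difference with N22 higher lay on chromosome 10, from 13173401 to 13173500, with 95.9% in N22 and 16.0% in Pokkali control at 5 mCs, also without an IR64 value. With N22 lower the largest CHG difference lay on chromosome 9, from 8690101 to 8690200, with 25.7% in N22 and 93.1% in Pokkali control. The largest CHH difference with N22 higher lay on chromosome 3, from 632201 to 632300, at 13 CHH mCs of the minus strand. The level was 85.3% in N22 and 17.0% in Pokkali control (adjusted p = 3.4e-96, Fisher's exact test), against 90.3% in IR64 control. IR64 control listed 11 of these mCs, without those at which N22 control stood at 65.5% and 50%. There Pokkali control was between 11.4% and 23.3% at each mC, N22 control was between 50% and 97.2%, and Pokkali salinity was at 36.8%, above Pokkali control. With N22 lower the largest CHH difference lay on chromosome 5, from 7375901 to 7376000, with 19.0% in N22 and 82.2% in Pokkali control.

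**Figure D5:**
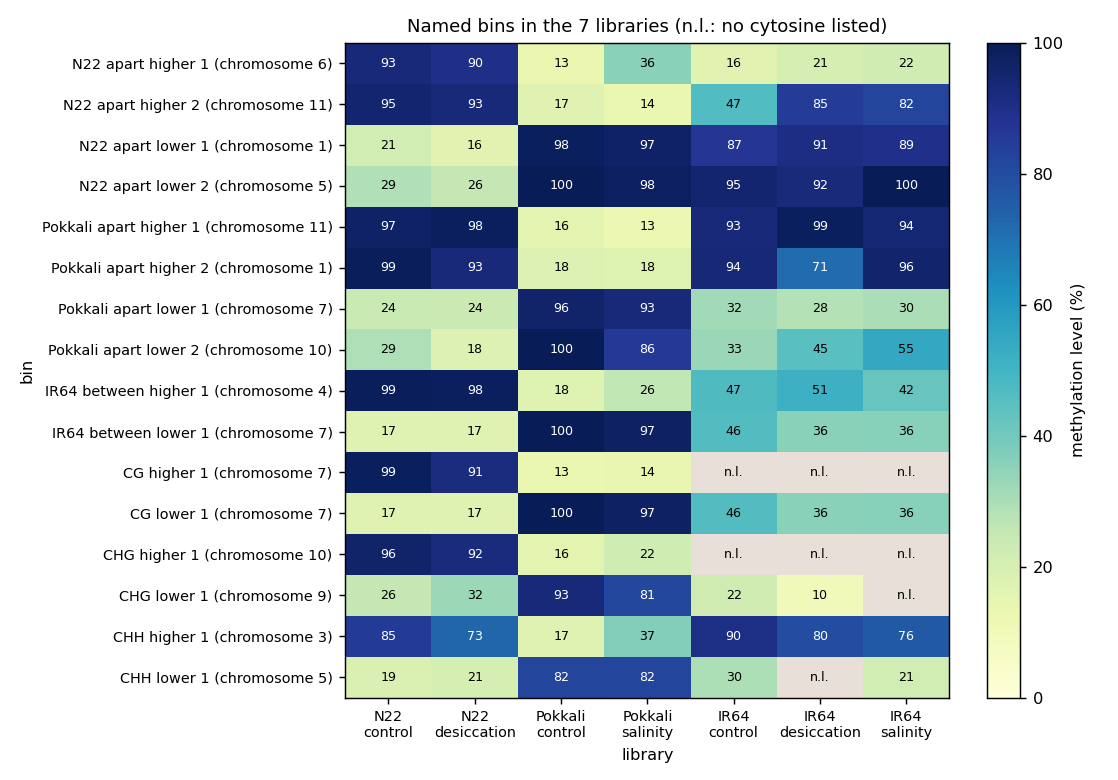
Methylation level (%, colour and printed value) of the named bins in rows and of the 7 libraries in columns, over the mCs shared by N22 and Pokkali control, with n.l. where a library listed none of them. Both N22 libraries stand on one side and both Pokkali libraries on the other in every row, by the rule of choice, and the IR64 libraries change side between the classes, with the second N22 row (47, 85 and 82 in IR64) as the exception.

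Bins listed in 1 library only were counted where both neighbouring bins held at least 3 mCs shared by N22 and Pokkali. Bins with 3 or more mCs in N22 control and none in Pokkali control numbered 5391, and 4432 had 3 or more in Pokkali control and none in N22 control. Their mCs differed in kind. CG made up 53.7% and CHH 12.5% of the mCs of the N22-only bins, whose median level was 80.4%, while CG made up 36.9% and CHH 38.5% of those of the Pokkali-only bins, whose median level was 50.4%. IR64 control listed 3 or more mCs in 37.2% of the N22-only bins and in 48.1% of the Pokkali-only bins. In the stressed pair 1697 of the N22-only bins (31.5%) and 1281 of the Pokkali-only bins (28.9%) were again listed in the same cultivar and absent in the other. Against this, 2062 of the N22-only bins were listed in Pokkali salinity, and 920 of the Pokkali-only bins in N22 desiccation. The same shares over all bins were not computed, so these counts are a description. The median of the mean depth per bin was 10.4 reads in the N22-only and 16.5 in the Pokkali-only bins. An mC that is not listed may be unmethylated, covered by too few reads or missing from the cultivar, and these cannot be told apart here.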

How the data were processed

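Whole genome bisulphite sequencing of DNA from whole rice seedlings gave 7 libraries, 1 per group. For the control libraries the authors aligned reads of all cultivars with Bismark to the MSU release 7 genome, kept uniquely aligned reads without clonal copies, and called mCs at p 0.001 with at least 5 reads. How the stressed libraries were processed is not given in the sources used here. The deposited depth is a raw count of reads at each cytosine of a strand, and the deposited level is the percent of these reads that were methylated. Cytosines that were not called were not listed, so their status was taken as unknown, and a cytosine that a cultivar lacks was not separated from an unmethylated one.

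Methylated reads were the depth multiplied by the level and rounded, and every product was whole within 0.005 points of level. A total of 3875 positions were given different contexts by different libraries and were used only in the sets that sum the contexts. Reads at the mCs listed in both libraries were summed in 100 bp bins with at least 3 such mCs and tested with Fisher's exact test (two-sided, Benjamini-Hochberg over all tested bins in place of the SLIM correction), in Python 3.11.15 with numpy 2.4.6, scipy 1.17.1 and numba 0.67.0, and the code was tested on simulated data. Bins with at most 4 CG positions listed in any library were called CG-poor and those with more than 8 CG-dense. The calling error rate of a library was the rate whose binomial threshold matched the fewest methylated reads found at each depth.

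Named bins had at least 5 shared mCs, 50 reads in each library, no mC above the 99th depth percentile and a difference of at least 20 points of the same sign between N22 desiccation and Pokkali salinity, and were ranked by their difference within each class or context. Runs and windows were named as the longest and as the highest and lowest. In named bins and runs the other libraries were read at those of the shared mCs that they listed. The comparison, the classes and the rule for named bins were chosen with earlier results of these data known. Alternatives changed the minimum depth, the error rate, depth by thinning, CG density, the difference, the minimum number of mCs, the strand, the centring and, after the data had been seen, each control library for the stressed library of its cultivar. Positions in genes and sequences were not analysed here, as no genome or annotation of this build was used.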

Additional observations from a re-analysis of the deposited data

Results flagged for a closer look

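The difference in CHH level between N22 and Pokkali at shared mCs was 3.46 points in the control pair and -1.14 points in the stressed pair (N22 desiccation minus Pokkali salinity), with 1 library per group. It was picked out because the sign differs between the pairs, and the difference between the pairs was not tested.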

How the results depend on the processing

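No paired analysis was possible because each group had 1 library. All named bins stayed DMRs in each of the 149 alternative values computed for them. They had been chosen for large differences that recur in the stressed pair, and a setting in which a bin could not be tested gave no value. This result was therefore largely set by the choice. The other results had 108 alternative values. Those that are counts cannot change sign, and of the level differences, which can, 0 changed sign. Counts beyond 1.5 times of the reported one, and level differences beyond its counting interval, which is narrow and which small changes exceed, are given below. The classes against IR64 and the bins called again in the stressed pair stayed within 1.5 times of the reported counts under the alternatives run for them. Where settings leave out bins, sites or strands, fewer tests are part of their construction, and for the others the cause was not tested.

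With the contexts summed (51434 higher and 7152 lower in N22), the counts were 8078 and 1982 in CG-dense bins and 28263 and 2802 in CG-poor bins, with p-values adjusted within these bins alone, 29602 and 3703 at a difference of 30 points, 33472 and 4567 with at least 5 shared mCs, 23850 and 3346 on the plus strand, 23695 and 3242 on the minus strand, and 93316 and 20122 over each library's own listed mCs. CG DMRs numbered 7757 higher and 2144 lower in CG-dense bins and 10864 and 1481 in CG-poor bins. CHG DMRs numbered 3222 and 700 in CG-dense and 12112 and 1151 in CG-poor bins, and 1499 were lower after thinning to equal depth. CHH DMRs numbered 468 and 181 in CG-dense bins, 740 were lower in CG-poor bins, 4957 were higher with at least 10 reads per mC, and after thinning 5493 were higher and 733 lower. With N22 desiccation in place of N22 control 4664 CHH DMRs were higher and 2031 lower, and with Pokkali salinity in place of Pokkali control 1832 were higher. The share of CHH DMRs higher in N22 was 86.5% in the control pair, 72.1% in CG-dense bins, 69.7% with N22 desiccation and 49.96% with Pokkali salinity.

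The difference in level for CG, CHG and CHH (reported as 3.43, 3.11 and 3.46 points) was 1.99, 0.204 and 0.683 in CG-dense bins, 5.09, 6.87 and 5.86 in CG-poor bins, 2.45, 2.93 and 4.73 as a mean of site levels, 3.40, 2.67 and 3.14 with at least 10 reads per mC, 3.27, 2.89 and 3.26 with mCs re-called at an error rate of 1%, and 6.94, 4.92 and 4.78 over each library's own mCs. With N22 desiccation it was 1.48, 1.95 and 2.01, and with Pokkali salinity 3.595, 2.36 and 0.319. Intervals cover counting error only, and the depth of the listed mCs (medians of 13 and 15 reads) limits what a single mC can show.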
